A study of Mus musculus with 40 samples.

Results

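The comparison of 5 closed-head injuries with 1 was made in female 3xTg-AD mice, whose left somatomotor cortex was sequenced as bulk RNA, with 10 samples labelled 5xCHI set against 10 samples labelled 1xCHI out of 40 samples in the series. The members were chosen by the injury label alone, and all samples with either label were kept. The 2 groups were matched in time, since each held 3 samples taken 30 min (0.5 h) after the last injury, 3 taken at 4 h and 4 taken at 24 h, and time entered the test as a block. Every mouse carried the 3xTg-AD genotype, which includes human mutant APP and MAPT transgenes under the Thy1 promoter, so the injured and the sham-injured mice were all Alzheimer's model mice of 2 to 4 months and no wild-type mouse was included. In closed-head injury (CHI) a weight was dropped on the intact skull of an anesthetized mouse whose head was free to rotate, once a day, so the 5xCHI mice had passed through injury and anesthesia on 5 days and the 1xCHI mice on 1. Counted from the first injury, the 1xCHI samples were taken at 0.5, 4 and 24 h and the 5xCHI samples at 96.5, 100 and 120 h. The number of blows, the number of exposures to anesthesia and the time since the first injury cannot be told apart between these groups. The 4 sham-injured samples came from mice that were anesthetized without a blow and are pooled over times, and they give the background level. The 3 samples each of 2xCHI and 4xCHI, all at 24 h, give a second, smaller comparison of more with fewer injuries.

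A blow to the closed head shears and stretches tissue, and repeated blows are studied because a first injury may alter how the cortex meets the next. Microglia, the resident macrophages of the brain, and astrocytes, the cells that buffer ions, transmitters and metabolites around neurons, both shift their transcript makeup after injury. Reactive astrocytes make the filament proteins Gfap and vimentin, while reactive microglia take up debris through lysosomes and make complement proteins. In bulk tissue, fewer cells of a type and less RNA per cell cannot be told apart.

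The samples held markers of cortical layers, with 19 genes summing to 1595 to 1838 CPM after 1xCHI and 1263 to 1820 CPM after 5xCHI. The 16 neuronal marker genes summed to between 10720 and 14400 CPM (counts scaled to a common library total and for composition) in the 20 samples, and the summed level of 11 striatal markers was between 234.2 and 1198 CPM. Total counts were 16976471 to 24964410 after 1xCHI (median 20067270) and 15926014 to 23223047 after 5xCHI (median 19884755). Several libraries stood apart before any test. The libraries 5xCHI 10 and 5xCHI 11 had the highest Gfap, at 1630 and 2420 CPM, where the other 18 samples lay at 559 CPM or less. Transthyretin (Ttr), the main secreted protein of the choroid plexus, reached 383, 2420 and 1210 CPM in 5xCHI 12, 31 and 32 and at most 39.5 CPM after 1xCHI. Mitochondrial transcripts made up 8.19% to 10.26% of counts in 1xCHI 13 to 18, against 6.41% to 7.35% in 5xCHI 7 to 12.

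No gene passed the test across the 10 samples against 10. Of 15224 features tested by edgeR's quasi-likelihood test, 0 had a Benjamini-Hochberg adjusted p under 0.05 (0%), and the smallest adjusted p was 0.146. The unadjusted p was under 0.05 for 948 features with a higher level after 5xCHI (6.23% of those tested) and for 814 with a lower level (5.35%), and the median log2 fold change over all features was 0.0044. Scaling by library size alone in place of the composition factors put 1169 of 1784 such features on the higher side. Other procedures called genes on the same samples, with 133 features by DESeq2 (0.874%), 176 with 1 surrogate variable (1.16%), 167 when all 39 samples were fitted together (1.1%) and 4403 by limma voom with a quality weight for each sample (28.9%), while limma voom without those weights called 0, with 1639 at an unadjusted p under 0.05. The leading genes are therefore given as values that did not pass edgeR's test, with adjusted p of 0.146 or 0.205.

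The leading genes on the higher side came from several functions. Acox3, a peroxisomal oxidase of branched-chain fatty acids (chr5:35583040-35615352, plus strand, GRCm38), was at 27.5 to 34.7 CPM after 1xCHI (median 30.4) and at 32.4 to 44.3 CPM after 5xCHI (median 38.1). Its log2 fold change was 0.33 ± 0.06 (SE, n = 10 and 10, edgeR adjusted p = 0.146), and 8 of the 10 5xCHI samples lay above the highest 1xCHI sample. Sham-injured samples had a median of 35.5 CPM, between the 2 groups. Slc4a2, an anion exchanger that regulates cell pH (chr5:24423837-24440950, plus strand), had medians of 25.4 and 32.5 CPM and a log2 fold change of 0.34 ± 0.07 with the same adjusted p, and 7 of 10 samples lay above the 1xCHI range of 24.0 to 29.2 CPM.

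Inpp5d, the inositol phosphatase SHIP1 of myeloid cells and a gene linked to Alzheimer's risk in humans (chr1:87620312-87720507, plus strand), had the largest ratio of the 5 described on this side. Its level was 8.7 to 13.6 CPM after 1xCHI (median 10.8) and 12.8 to 26.2 CPM after 5xCHI (median 15.3), a log2 fold change of 0.65 ± 0.14 (edgeR adjusted p = 0.205). The 2 highest values belonged to 5xCHI 10 and 11, without which the log2 fold change was 0.45, and 8 of 10 samples lay above the 1xCHI range. Lrp5, a co-receptor for Wnt ligands (chr19:3584828-3686564, minus strand), was at 4.33 to 7.39 CPM (median 6.00) against 7.32 to 11.3 CPM (median 8.18), so that 9 of 10 5xCHI samples exceeded every 1xCHI sample, and its log2 fold change was 0.54 ± 0.12. Relt, a receptor of the tumor necrosis factor family (chr7:100845847-100863446, minus strand), had medians of 16.0 and 19.5 CPM, a log2 fold change of 0.33 ± 0.07 and 8 samples above the 1xCHI range of 14.5 to 16.8 CPM.

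On the lower side stood genes of neuronal signaling and of microtubules. Gpr83, a G protein-coupled receptor (chr9:14860210-14870789, plus strand), was at 27.1 to 42.3 CPM after 1xCHI (median 34.3) and at 19.1 to 30.2 CPM after 5xCHI (median 24.4). Its log2 fold change of -0.48 ± 0.08 had the smallest unadjusted p of all named genes (1.53e-05, edgeR adjusted p = 0.146), and 7 of 10 samples lay below the 1xCHI range. Cort, the neuropeptide cortistatin made by cortical interneurons (chr4:149125034-149126763, minus strand), was at 2.82 to 6.87 CPM (median 4.13) against 0.791 to 3.27 CPM (median 2.41). This was the largest ratio of the 11 leading genes, at -0.95 ± 0.18 on the log2 scale, and the sham median was 4.33 CPM. Gng4, a gamma subunit of heterotrimeric G proteins (chr13:13784059-13827896, plus strand), had medians of 29.6 and 19.8 CPM and a log2 fold change of -0.63 ± 0.12. Rgs19, which speeds the shut-off of inhibitory G proteins (chr2:181688419-181693977, minus strand), had medians of 15.7 and 12.4 CPM and a log2 fold change of -0.34 ± 0.07, with 8 of 10 samples below the 1xCHI range. These 4 were not fixed as a group, and nothing was tested over them.

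Both remaining leading genes code for beta-tubulins, the subunits of microtubules. Tubb2a (chr13:34074274-34078007, minus strand) was at 343 to 500 CPM after 1xCHI (median 401) and 245 to 366 CPM after 5xCHI (median 311), a log2 fold change of -0.37 ± 0.08. Tubb3, the neuronal form (chr8:123411424-123422015, plus strand), was at 242 to 347 CPM (median 270) against 181 to 271 CPM (median 215), a log2 fold change of -0.35 ± 0.07, and 9 of 10 5xCHI samples were below every 1xCHI sample. The exception was 5xCHI 31 at 271 CPM. All 11 leading genes kept the sign of their difference in each of the 20 alternatives tried and in each of the 20 fits that left out 1 sample. These fits used all or part of the 20 samples on which the genes were chosen, so kept signs are largely built in. The sham median lay between the 2 group medians except for Cort and Tubb3, where it was 4.33 and 275 CPM and above both.

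**Figure D1:**
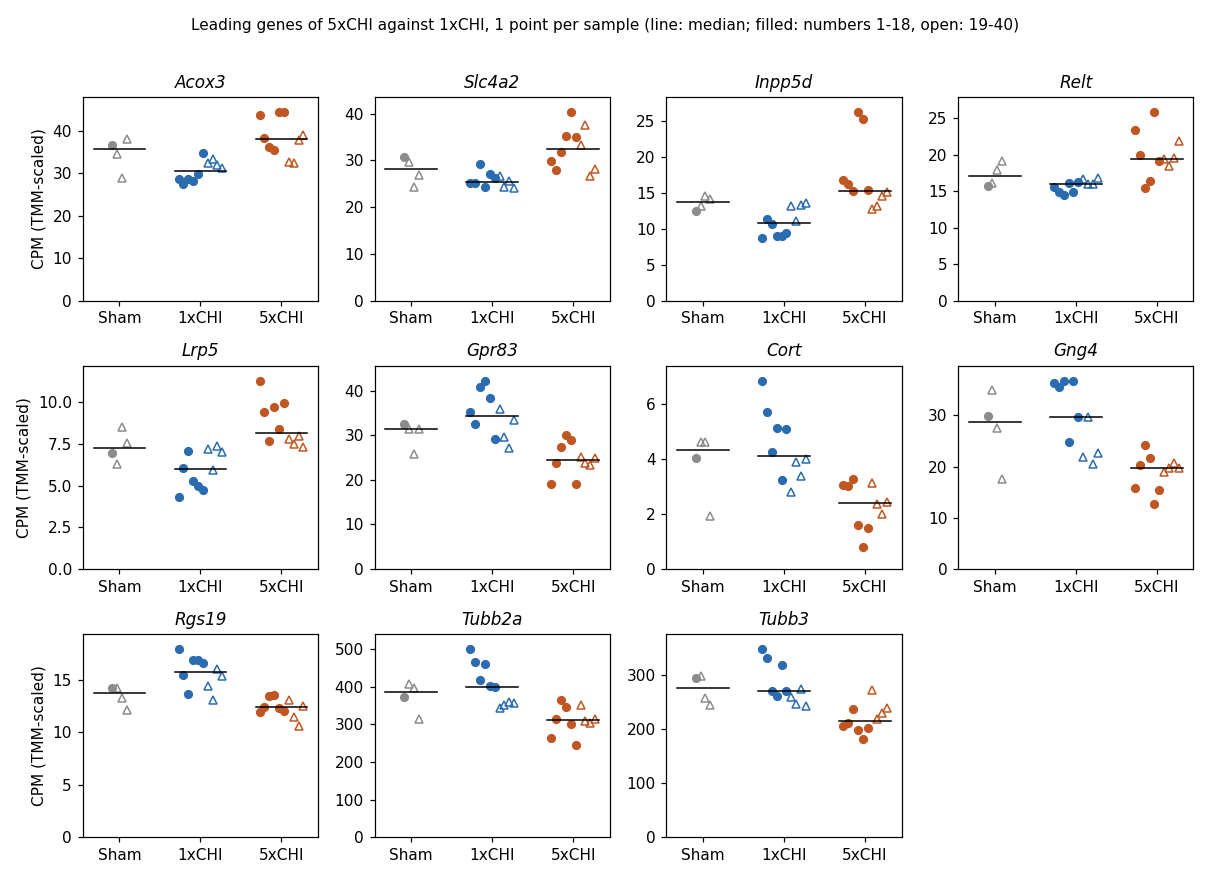
Level in CPM (vertical axis, from 0) of the 11 leading genes in each sham-injured, 1xCHI and 5xCHI sample, with filled circles for sample numbers 1 to 18, open triangles for 19 to 40 and a line at the group median. In Lrp5, 9 of 10 5xCHI samples lie above all 1xCHI samples and in Tubb3 9 of 10 lie below, while the open triangles of the 2 groups lie closer together than the filled circles.

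After those 2 genes were seen, the tubulin genes were looked at as a family. Of 12 tubulin features tested, 11 were lower after 5xCHI and 8 had an unadjusted p under 0.05, all on the lower side, against 5.35% of all features. Without Tubb2a and Tubb3, which led to the choice of the family, 6 of 10 were lower at that p. The median log2 fold change of the 12 was -0.27, and it was -0.26 under library size scaling, where 10 of 12 were lower. Without 5xCHI 10 and 11 it was -0.27, with 9 of 12 lower at an unadjusted p under 0.05. Tubb4b was at 212 to 280 CPM after 1xCHI and 169 to 237 CPM after 5xCHI (-0.30 ± 0.06), and Tuba1a, an alpha-tubulin of developing and regrowing neurons, had medians of 789 and 678 CPM (-0.25 ± 0.07). Tuba8 had a log2 fold change of 0.20 ± 0.11. In sample numbers 19 to 40, one of 2 ranges of the labels, the 12 had a median of -0.09 and 0 at an unadjusted p under 0.05, and in 4xCHI against 2xCHI 6 of 12 were lower and the median was -0.0038. Tubulin genes are close in sequence, so the estimated counts may divide shared reads among them.

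The genes called by DESeq2, by limma voom with sample weights, with 1 surrogate variable and with all 39 samples had 72 in common, 28 higher and 44 lower after 5xCHI, and none differed in sign among the 4. All 4 procedures used these 20 samples, 1 of them with 19 others added, and are not independent of each other. All 11 leading genes were among the 72. Others on the higher side were Vsir and Il10ra, 2 receptors that restrain immune cells, with log2 fold changes of 0.54 ± 0.13 and 0.58 ± 0.14. For Vsir, 9 of 10 5xCHI samples (21.1 to 47.8 CPM) lay above the 1xCHI range of 13.9 to 23.8 CPM. On the lower side were the chaperone partner Ppid (-0.21 ± 0.05) and Rheb (-0.27 ± 0.06), the small GTPase that switches on mTORC1. Vsir, Il10ra, Ppid and Rheb were chosen after their values were seen.

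No gene passed the test at a single time after the last injury. With 3 against 3 samples at each of the first times and 4 against 4 at the last, edgeR called 0 genes (0%) at each time, with 601, 511 and 630 features at an unadjusted p under 0.05, and DESeq2 also called 0 at each. The test of whether the difference varied with time called 0 (0%), with 184 at an unadjusted p under 0.05 and 0 by DESeq2. Among the leading genes the differences at the 3 times mostly lay within their errors of each other. Gpr83 had log2 fold changes of -0.51 at 30 min, -0.51 at 4 h and -0.43 at 24 h, and Cort had -0.83, -0.88 and -1.10. The widest spread among them was in Gng4, with -0.87 at 30 min, -0.35 at 4 h and -0.66 at 24 h. Lrp5 had 0.81, 0.37 and 0.47, and Relt had 0.44, 0.09 and 0.44.

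**Figure D2:**
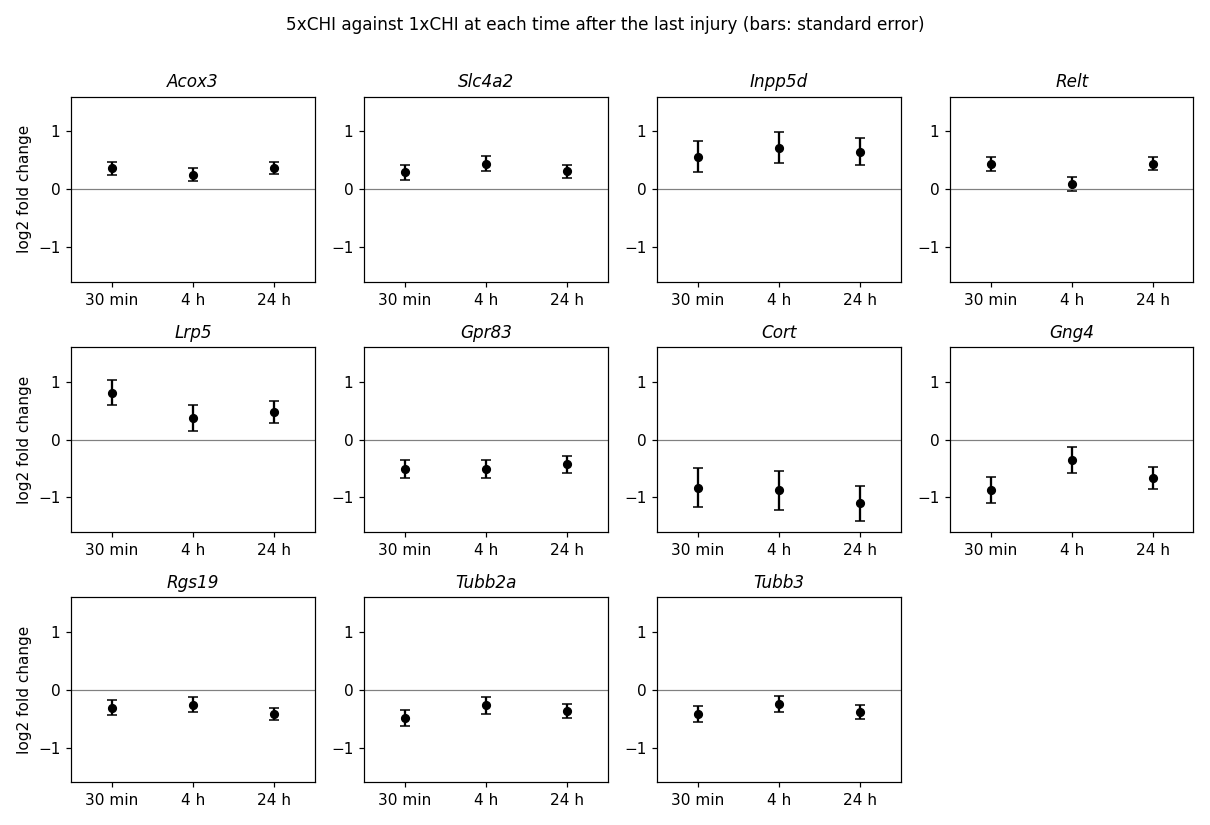
Log2 fold change of 5xCHI against 1xCHI (vertical axis) at each of the 3 times after the last injury for the 11 leading genes, with bars for the standard error. The 5 genes of the higher side stay above 0 and the 6 of the lower side below 0 at all 3 times, and Relt at 4 h (0.09) lies closest to 0.

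The genes of smallest p at each time were, except Relt, not among the leading genes. At 30 min they were Nprl3, a brake on mTORC1 signaling, at 17.1, 17.6 and 17.8 CPM after 1xCHI and 21.6, 23.6 and 24.1 CPM after 5xCHI, Aox1, an aldehyde oxidase, and Sgsm1, a modulator of small GTPases. The samples of Nprl3 did not overlap at 30 min (log2 fold change 0.41 ± 0.09, edgeR adjusted p = 0.985), and its differences at 4 h and 24 h were 0.04 and -0.01. At 4 h they were Gbp6, an interferon-induced GTPase, Cped1, and Pycr1, an enzyme of proline synthesis. Gbp6 was at 3.85, 4.31 and 7.98 CPM in the 1xCHI samples and at 1.44, 1.53 and 2.42 CPM in the 5xCHI samples at 4 h, a log2 fold change of -1.56 ± 0.33, while at 30 min the order was opposite (0.74 ± 0.34). Gbp6, Cped1 and Thbs2, a matrix thrombospondin, were also those of smallest p in the test of variation with time, with unadjusted p of 0.000436, 0.000771 and 0.000774 and an edgeR adjusted p of 1. Thbs2 had log2 fold changes of 0.48 ± 0.20, -0.73 ± 0.20 and 0.26 ± 0.17 at the 3 times. At 24 h Relt, Cables1, a partner of cyclin-dependent kinases, and Fam129a led, and Fam129a was at 2.32 to 3.83 CPM after 1xCHI and 4.47 to 5.73 CPM after 5xCHI (0.79 ± 0.20). None of these differences passed the test over all features.

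Gene lists for cell types and pathways were then read by their counts and medians, with no test over a list. Members named beyond the first 2 of a list were picked after their values were seen. Of 19 microglial markers, 16 had an unadjusted p under 0.05 on the higher side and 0 on the lower, against 6.23% and 5.35% of all features, and their median log2 fold change was 0.53 against 0.0044 over all features. Csf1r, the receptor that keeps microglia alive, had a log2 fold change of 0.56, and Fcrls, a marker of resident microglia, had 0.94. P2ry12, the ADP receptor by which surveying microglia sense damage, was at 26.0 to 44.1 CPM after 1xCHI and 26.2 to 50.0 CPM after 5xCHI (0.02 ± 0.11), and Tmem119, another homeostatic marker, was at 18.2 to 24.8 CPM against 19.3 to 34.0 CPM (0.22 ± 0.10). The list's summed level was 433.5 to 619.9 CPM after 1xCHI and 521.9 to 1590 CPM after 5xCHI. Without 5xCHI 10 and 11 the median was 0.20 and 7 of 19 had an unadjusted p under 0.05 on the higher side, against 6.02% of all features in that fit. In sample numbers 1 to 18 alone the median was 0.82, and in 19 to 40 it was -0.02, with 8 of 19 above 0.

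Genes that mark disease-associated microglia lay on the same side. Of 16 tested, 10 had an unadjusted p under 0.05 on the higher side and 0 on the lower, against 6.23% and 5.35% of all features. Their median was 0.53. Cd68, a lysosomal glycoprotein of phagocytes, was at 3.29 to 6.53 CPM after 1xCHI (median 5.05) and at 4.06 to 45.3 CPM after 5xCHI (median 7.10), and 6 of 10 samples lay above the 1xCHI range (1.28 ± 0.40, edgeR adjusted p = 0.255). Trem2, the lipid-sensing receptor of microglia, was at 7.15 to 13.8 CPM against 8.81 to 52.7 CPM (0.84 ± 0.29), and its adaptor Tyrobp at 6.83 to 11.1 CPM against 5.58 to 46.7 CPM (0.87 ± 0.33). In all 3 genes the 2 highest values were those of 5xCHI 10 and 11. Without these libraries the log2 fold changes were 0.35 for Cd68, 0.23 for Trem2 and 0.17 for Tyrobp. Leaving them out gave a list median of 0.13. In that fit 4 members of unadjusted p under 0.05 were higher and 1 lower, against 6.02% and 8.2% of all features. The list median in sample numbers 19 to 40 was 0.03.

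Complement genes, which tag debris and synapses for removal, had 8 of 13 members with an unadjusted p under 0.05 on the higher side, 0 on the lower and a median of 0.54. Over all features the shares higher and lower at that p were 6.23% and 5.35%, and 6.02% and 8.2% without 5xCHI 10 and 11. The 3 subunits of C1q, which are also in the microglial list, had log2 fold changes of 0.69, 0.83 and 0.85. C4b, made by astrocytes and microglia, was at 17.7 to 60.6 CPM after 1xCHI (median 24.2) and at 12.9 to 208 CPM after 5xCHI (median 40.4), so that the 5xCHI group reached both lower and higher than the 1xCHI group. C3ar1, the receptor for the C3a fragment, was at 0.798 to 2.48 CPM against 1.31 to 14.6 CPM (1.61 ± 0.44, edgeR adjusted p = 0.215). Without 5xCHI 10 and 11 the log2 fold changes were 0.18 for C4b, 0.70 for C3ar1 and 0.09 to 0.20 for the C1q subunits. The complement median was 0.18 in that fit, with 2 members higher, and 0.06 in sample numbers 19 to 40. Lysosomal genes followed with 14 of 28 on the higher side and 0 on the lower, a median of 0.18 and all 28 above 0, while without the 2 libraries 8 of 28 were past that p (median 0.09), and in 19 to 40 the median was 0.02 with 17 of 28 above 0 and 0 past that p. Ctsb, a lysosomal protease, was at 401 to 551 CPM after 1xCHI and 514 to 971 CPM after 5xCHI, with 7 of 10 samples above the 1xCHI range (0.32 ± 0.10).

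Astrocyte genes were read in lists of general and of injury markers. Of 20 general markers, 11 had an unadjusted p under 0.05 on the higher side, 0 on the lower, and the median was 0.26. All features had 6.23% higher and 5.35% lower at that p, and 6.02% and 8.2% without 5xCHI 10 and 11. Aldh1l1, a folate enzyme used to mark astrocytes, was at 47.6 to 66.4 CPM against 52.2 to 191 CPM (0.50 ± 0.20), and the water channel Aqp4 at 65.3 to 121 CPM against 63.3 to 172 CPM (0.11 ± 0.15). Without 5xCHI 10 and 11 Aldh1l1 had 0.14 and Aqp4 -0.12, the median was 0.11 and 1 member had an unadjusted p under 0.05, and in sample numbers 19 to 40 the median was -0.07, with 4 of 20 above 0. Of 9 pan-reactive markers tested, 6 were higher at that p and 0 lower, with a median of 0.70. Gfap was at 105 to 332 CPM after 1xCHI (median 178) and 107 to 2420 CPM after 5xCHI (median 256), a log2 fold change of 1.63 ± 0.54 (edgeR adjusted p = 0.269). Serpina3n, a secreted protease inhibitor of reactive astrocytes, had the largest difference of any pan-reactive gene, at 3.41 to 10.4 CPM (median 6.49) against 5.58 to 309 CPM (median 16.5), 2.94 ± 0.68 on the log2 scale (edgeR adjusted p = 0.205). Without the 2 libraries the log2 fold change was 0.28 for Gfap and 1.13 for Serpina3n. The pan-reactive median was then 0.21, with 2 members higher and 1 lower, and in sample numbers 19 to 40 it was -0.27. The A1 list of inflammatory reactive astrocytes had 1 of 11 higher and a median of 0.07, and the A2 list 2 of 8 higher and a median of 0.18, with 0 lower in both. The A2 median was -0.13 without 5xCHI 10 and 11. Other procedures gave different counts for the microglial to pan-reactive lists. limma voom with sample weights called 5 of 19 microglial, 2 of 16 disease-associated, 2 of 13 complement, 9 of 28 lysosomal, 4 of 20 astrocyte and 2 of 9 pan-reactive genes higher, against 15.5% of all features, and DESeq2 called 1, 0, 2, 0, 0 and 1 of them, against 0.874% of all features in either direction. With 1 surrogate variable the calls were 0, 3, 0, 3, 0 and 0, against 1.16% of all features. With all 39 samples they were 3, 3, 1, 4, 0 and 2, against 1.1%.

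Alzheimer's genes were read in 2 lists. At an unadjusted p under 0.05, 9 of 19 genes of lipid transport and human disease risk were higher and 0 lower. The shares of all features were 6.23% and 5.35%. The list median was 0.29. It was 0.09 without 5xCHI 10 and 11, where 5 were higher, against 6.02% of all features. In sample numbers 1 to 18 the median was 0.46, and in 19 to 40 it was 0.06 with 0 at an unadjusted p under 0.05. The 9 higher genes of all 20 samples included Inpp5d, Spi1 (0.61), Plcg2 (0.45), Cd33 (0.52) and Grn (0.63), which are expressed in microglia, and the cholesterol exporter Abca1 (0.82). Apoe, the main lipid carrier of the brain, was at 1290 to 2490 CPM after 1xCHI and 1520 to 3400 CPM after 5xCHI (0.16 ± 0.14), and Clu, another apolipoprotein, had 0.18 ± 0.09. The list of the precursor protein, its secretases and tau had 1 member higher and 1 lower of 26 and a median of 0.02. The rows for mouse App (0.05 ± 0.10) and Mapt (-0.07 ± 0.05) differed by less than 2 standard errors. Whether reads of the human APP transgene were counted in the mouse App row was not tested.

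The human MAPT transgene, which codes for tau, was measured at 6.15 to 40.6 CPM after 1xCHI (median 14.8) and 6.91 to 35.7 CPM after 5xCHI (median 22.9), a log2 fold change of 0.33 ± 0.35 (edgeR adjusted p = 0.757). Sham-injured samples spanned 14.9 to 32.7 CPM. Levels of this transgene varied several-fold among mice of 1 group, and the groups overlapped over nearly their whole range. The row for human APP held 0 to 1 counts per sample in the 39 samples and was not tested, although the APP transgene is carried by all of these mice.

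Genes of cholesterol synthesis, an astrocyte and oligodendrocyte pathway in adult brain, lay on the lower side. Of 21 tested, 10 had an unadjusted p under 0.05 lower and 0 higher, against 5.35% of all features, and the median was -0.22. Hmgcs1, an enzyme early in the pathway, was at 233 to 354 CPM after 1xCHI (median 281) and at 131 to 291 CPM after 5xCHI (median 222), with 5 of 10 samples below the 1xCHI range (-0.40 ± 0.15, edgeR adjusted p = 0.299). Sham-injured samples had 301 to 322 CPM of Hmgcs1, above both medians of the injured groups. Without 5xCHI 10 and 11 the median was -0.18, with 7 of 21 lower, against 8.2% of all features in that fit. It was -0.34 in sample numbers 1 to 18 and -0.09 in 19 to 40, where 2 of 21 had an unadjusted p under 0.05. Msmo1 (-0.41), Idi1 (-0.38) and Cyp51 (-0.37), enzymes of later steps, were among the 10.

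All 13 protein-coding genes of the mitochondrial genome had an unadjusted p under 0.05 on the lower side, against 5.35% of all features, with a median of -0.28. In the fit without 5xCHI 10 and 11 it was 12 of 13, against 8.2%, and the median was -0.28. The 13 are transcribed from 1 small genome and are not independent of each other. The level of mt-Atp6, a subunit of ATP synthase, was 3910 to 6750 CPM after 1xCHI (median 5210), 3520 to 5490 CPM after 5xCHI (median 4060) and 3620 to 3970 CPM in sham-injured samples. The 5xCHI median thus lay nearer to the sham level, and the 3 highest values were those of 1xCHI 13, 14 and 15. The list median was -0.43 in sample numbers 1 to 18 and -0.03 in 19 to 40. Nuclear genes of the respiratory chain had 8 of 85 lower and 0 higher, with a median of -0.14, and in the fit without 5xCHI 10 and 11 they had 33 of 85 lower and a median of -0.19. In sample numbers 19 to 40 their median was 0.05, with 63 of 85 above 0 and 0 at an unadjusted p under 0.05. Atp5a1 and Atp5b, the 2 main subunits of ATP synthase's catalytic head, both had 0.03 ± 0.05. Genes of the mitochondrial ribosome had 13 of 78 lower and 0 higher (median -0.11), and 27 of 78 were lower without the 2 libraries, while in 19 to 40 the median was 0.01 with 44 of 78 above 0. Cytosolic ribosomal proteins had 2 of 80 lower, 0 higher and a median of -0.11 in all 20 samples, but 39 of 80 lower and a median of -0.24 without 5xCHI 10 and 11. In 19 to 40 they had a median of 0.08, with 70 of 80 above 0. limma voom with sample weights called 70 of 80 cytosolic ribosomal, 67 of 85 nuclear respiratory and 53 of 78 mitochondrial ribosomal genes lower, against 13.5% of all features, whereas DESeq2 called 0, 1 and 0.

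Among neuronal lists, immediate early genes, switched on by synaptic activity, had a median of -0.23. At an unadjusted p under 0.05, 6 of 28 were lower and 0 higher, against 5.35% and 6.23% of all features. The median was -0.04 in sample numbers 19 to 40, with 12 of 28 above 0, and -0.39 with 9 lower without 5xCHI 8. The 6 lower genes of all 20 samples included Nr4a2 (-0.87), Egr2 (-0.81) and Bdnf, the growth factor (-0.42). Fos was at 11.9 to 111 CPM after 1xCHI and 9.5 to 215 CPM after 5xCHI (-0.45 ± 0.41), with the highest value in 5xCHI 8. Interneuron markers had 4 of 17 lower and 0 higher, with a median of 0.02. The 4 were the neuropeptides Cort, Sst, Cck and Crh (-0.95, -0.32, -0.32 and -0.35), whereas the GABA-synthesizing enzymes Gad1 and Gad2 had 0.14 ± 0.11 and 0.11 ± 0.16. General neuronal markers had 1 higher and 2 lower of 16 (median -0.02), and Rbfox3, which codes for NeuN, had -0.01 ± 0.08. Glutamate and GABA receptors (1 and 1 of 35), ion channels (2 and 1 of 44), vesicle release genes (1 and 0 of 29), postsynaptic genes (0 and 1 of 27) and neurofilament and axonal injury genes (1 and 1 of 11) had higher and lower counts near or under the background. limma voom with sample weights instead called 12 of 35 receptors, 22 of 44 ion channels and 14 of 29 vesicle release genes higher, against 15.5% of all features, whereas DESeq2 called 0 in these 3 lists.

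Counts of stress and other genes are given at an unadjusted p under 0.05. At that p 6.23% of all features were higher and 5.35% lower, and 6.02% and 8.2% without 5xCHI 10 and 11. Among stress and protein-handling genes, heat shock and chaperone genes had 8 of 23 lower and 0 higher (median -0.13). In sample numbers 1 to 18 their median was -0.17, and in 19 to 40 it was -0.04 with 10 of 23 above 0. The 8 lower genes included the cytosolic chaperones Hspa8 (-0.16) and Hsp90aa1 (-0.20) and Calr (-0.17), a chaperone of the endoplasmic reticulum, while the inducible Hspa1a was at 13.5 to 28.1 CPM against 14.7 to 26.5 CPM (0.07 ± 0.13). Proteasome genes had 6 of 37 lower and 0 higher (median -0.09), and splicing factors 8 lower and 2 higher of 31 (median -0.06), with medians of -0.0063 and 0.05 in 19 to 40. The glucocorticoid response list had 3 of 17 higher, 0 lower and a median of 0.19, which was 0.07 without 5xCHI 11, 0.38 in sample numbers 1 to 18 and -0.16 in 19 to 40, and by time -0.20 at 30 min, -0.02 at 4 h and 0.62 at 24 h. In that list, Fkbp5, a classic target, was at 17.5 to 73.0 CPM against 19.4 to 70.7 CPM (0.33 ± 0.28). Interferon response genes had 0 higher and 2 lower of 18, MHC class I genes 0 of 10 either way, oligodendrocyte markers 0 higher and 1 lower of 19 (1 and 8 without 5xCHI 10 and 11), and endothelial markers 3 higher and 0 lower of 18, with a median of 0.18 that was -0.07 in 19 to 40.

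Markers of neighboring tissue were high in single libraries. At an unadjusted p under 0.05, 6.23% of all features were higher and 5.35% lower in the 20 samples. In sample numbers 19 to 40, 3.54% of features were past that p in either direction. The 3 choroid plexus genes tested of 9 listed (Ttr, Kl and Prlr) were higher at an unadjusted p under 0.05, with a median of 1.69, and the median was -0.16 with 0 past that p without 5xCHI 12, 31 and 32. The other 6 did not pass the filter on low counts. Meningeal markers had 4 of 16 lower and a median of -0.42, and their summed level was 631.6 to 4365 CPM after 1xCHI, highest in 1xCHI 15, against 606.3 to 1415 CPM after 5xCHI. Without 1xCHI 15 their median was -0.07, with 2 higher and 1 lower. In sample numbers 1 to 18 the meningeal median was -0.97, and in 19 to 40 it was 0.37, with all 16 above 0 and 8 at an unadjusted p under 0.05. Hemoglobin and other red cell genes had 2 of 5 lower and a median of -0.51, which was -0.74 in sample numbers 1 to 18 and 0.15 in 19 to 40, where all 5 were above 0. Striatal markers had 0 of 11 at an unadjusted p under 0.05 in either direction and a median of -0.17, and were uneven within both groups. Drd1, a dopamine receptor of striatal neurons, was at 34.4 CPM in 1xCHI 26, 20.9 CPM in 1xCHI 36, 28.2 CPM in 5xCHI 32 and 18.8 CPM in 5xCHI 34, and at 3.07 to 11.8 CPM in the other 16. The striatal median was 0.30 without 1xCHI 26, 0.06 without 1xCHI 36 or without 5xCHI 11, and -0.58 without 5xCHI 32. The part of these tissues in the gene lists above was not tested. The microglial median was 0.70 and the astrocyte median 0.34 without the 3 choroid libraries.

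**Figure D3:**
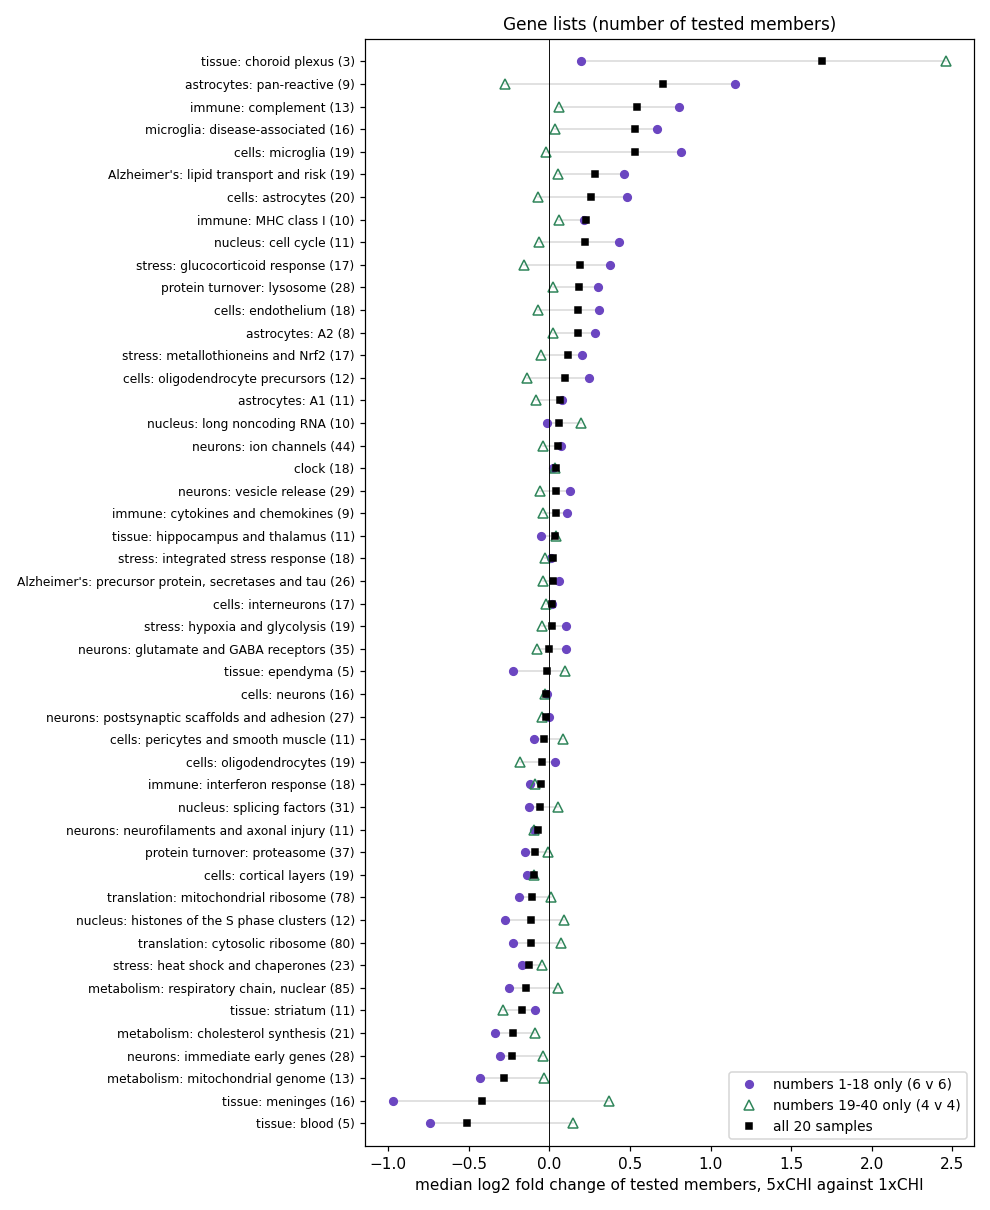
Median log2 fold change of 5xCHI against 1xCHI (horizontal axis) over the tested members of each of 48 gene lists, with black squares for all 20 samples, purple circles for sample numbers 1 to 18 and green triangles for 19 to 40. Pan-reactive astrocyte, complement and microglial lists lie right of 0 in the 20 samples and mitochondrial and meningeal lists left of 0, and their triangles lie near 0 or on the other side (pan-reactive -0.27, meninges 0.37).

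The number of genes called between 5 and 1 injuries differed with the sample numbers compared. The sample numbers in the labels fall into 2 ranges, 1 to 18 with 6 samples of each group and 19 to 40 with 4 of each, both with every time point. The position of this split came from earlier results of these data and the labels name no batch. In 1 to 18, edgeR called 1288 features (8.46%), of which 705 were higher (4.63%) and 583 lower (3.83%) after 5xCHI. In 19 to 40 it called 1 feature (0.00657%), Rn7s1, a 7S RNA of the signal recognition particle with near-identical copies, with 539 at an unadjusted p under 0.05 and 4 called by DESeq2. The difference between the ranges itself was called for 0 features by edgeR (0%, smallest adjusted p 0.0577), with 3145 at an unadjusted p under 0.05, and for 728 by DESeq2. Within 1 to 18 the 5xCHI samples are numbers 7 to 12 and the 1xCHI samples 13 to 18, so the order of numbers and the number of injuries cannot be told apart there.

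In sample numbers 1 to 18 several reactive glial genes passed the test on the higher side. Serpina3n rose by 3.80 on the log2 scale (edgeR adjusted p = 0.0171), Gfap by 2.04 (0.038), the hyaluronan receptor Cd44 by 2.16 (0.0246) and C3ar1 by 2.36 (0.0202). Of 19 microglial markers 8 rose and 0 fell, of 28 lysosomal genes 8 rose, of 20 astrocyte markers 6 rose and of 9 pan-reactive markers 5 rose, against 4.63% of all features. None of 11 A1 astrocyte genes, 19 oligodendrocyte markers and 12 markers of oligodendrocyte precursors was called in either direction, against 8.46% of all features. On the lower side, 12 of 13 mitochondrial genes, 25 of 85 nuclear respiratory genes, 7 of 21 cholesterol genes and 8 of 12 tubulin features fell, against 3.83% of all features. Among the leading genes, 10 of 11 were called, with Relt at an adjusted p of 0.0504. In sample numbers 19 to 40 the same quantities were -0.27 for Serpina3n, -0.34 for Gfap, -0.62 for Cd44 and -0.28 for C3ar1, with 0 of these called. Leaving out 5xCHI 7 reduced the calls in 1 to 18 to 131 and leaving out 5xCHI 11 raised them to 3218. Without both 5xCHI 10 and 11, the libraries of highest Gfap, there were 3413.

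Levels by sample number show where the ranges part. Serpina3n was at 16.0 to 309 CPM in 5xCHI 7 to 12, at 3.41 to 6.50 CPM in 1xCHI 13 to 18, at 5.58 to 9.20 CPM in 5xCHI 31 to 34 and at 6.99 to 10.4 CPM in the 1xCHI samples of the second range. The 4 sham-injured samples were at 6.56 to 8.51 CPM. Thus all 6 5xCHI samples of the first range lay above every other sample of the 3 groups, and the 6 1xCHI samples of that range lay below all 4 sham-injured samples. Over all features the sign of the difference was the same in both ranges for 40.4%, and for 31.4% of the 1288 called in 1 to 18. Of the 48 gene lists, 26 had a median in 19 to 40 of opposite sign to that in all 20 samples. The leading genes kept their sign in 19 to 40 at smaller size, with log2 fold changes of 0.30 for Slc4a2, 0.27 for Relt, -0.37 for Gpr83, -0.50 for Cort and -0.31 for Rgs19 and 0.10 to 0.25 in size for the other 6, and 0 of them was called there. This agreement in sign is fixed in part by the choice of these genes on all 20 samples.

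**Figure D4:**
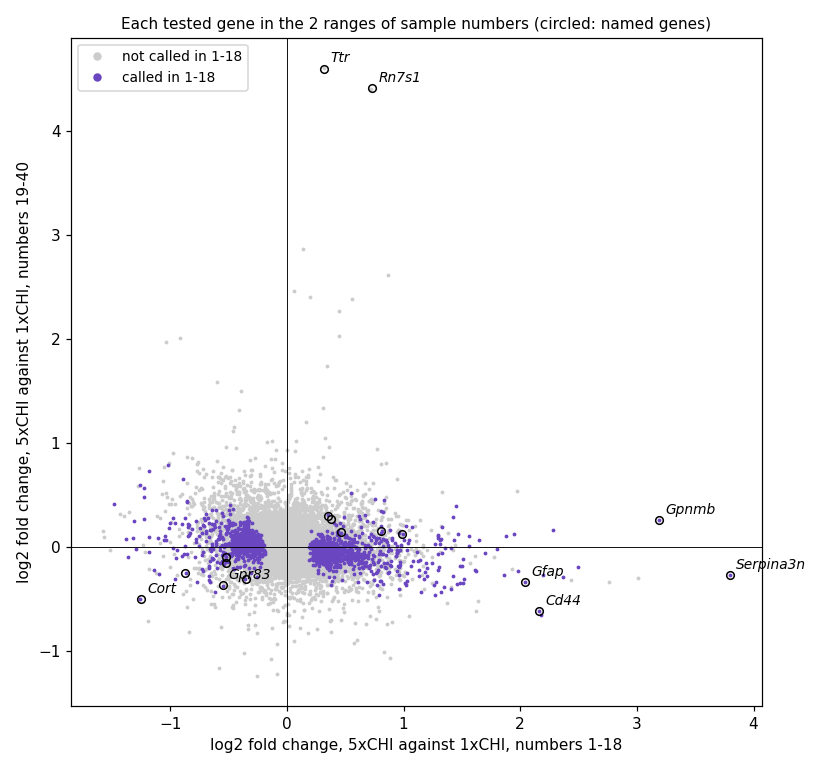
Log2 fold change of each of 15224 tested features in sample numbers 1 to 18 (horizontal axis) and in 19 to 40 (vertical axis), with the 1288 features called in 1 to 18 in purple and named genes circled. Purple points spread along the horizontal axis and lie around 0 on the vertical one, with Serpina3n at 3.80 and -0.27, while Ttr (0.32 and 4.60) and Rn7s1 (0.73 and 4.41) stand at the top.

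**Figure D5:**
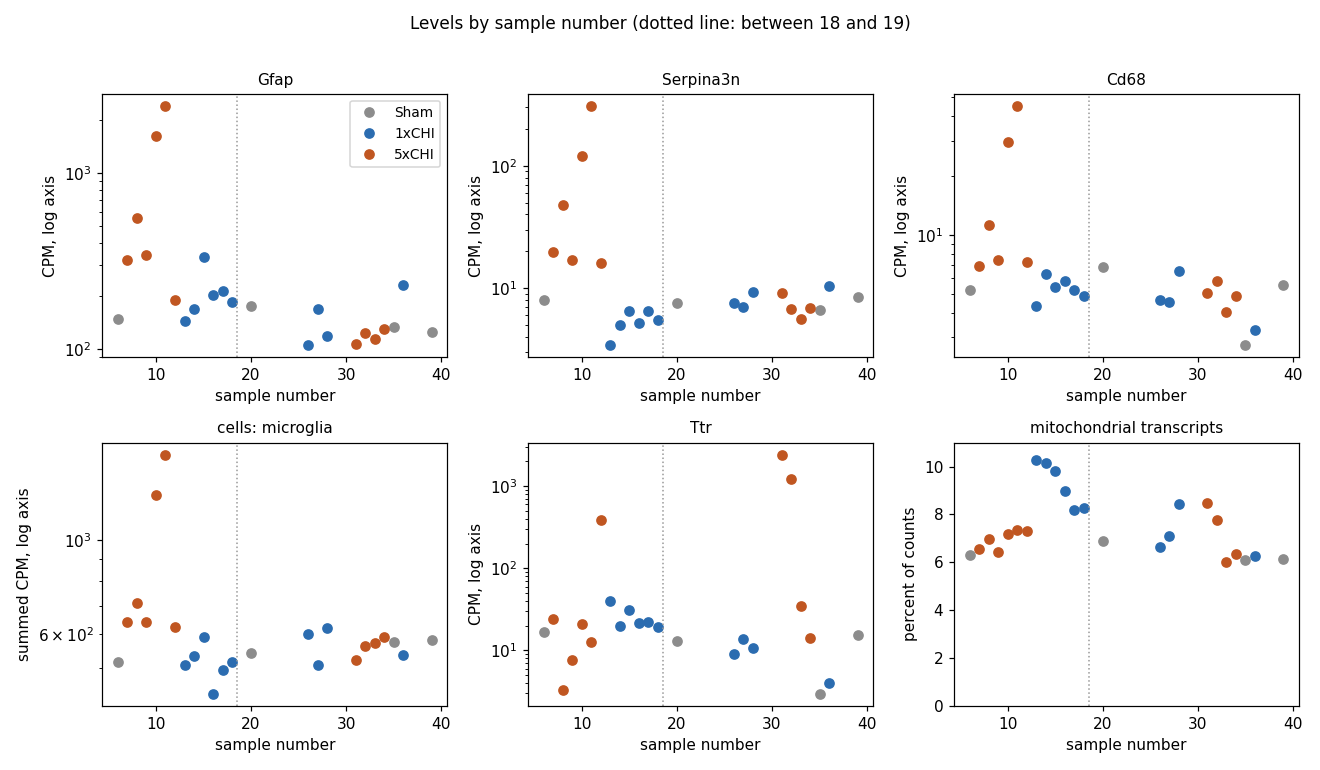
Levels of Gfap, Serpina3n, Cd68, the microglial marker sum and Ttr (CPM, log axes) and the share of mitochondrial transcripts (percent of counts) against sample number, for sham-injured, 1xCHI and 5xCHI samples, with a dotted line between 18 and 19. 5xCHI 10 and 11 stand highest in Gfap (1630 and 2420 CPM), 5xCHI 12, 31 and 32 in Ttr, and 1xCHI 13 to 18 hold 8.19% to 10.26% of counts in mitochondrial transcripts.

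The 3 4xCHI samples and the 3 2xCHI samples, all at 24 h and all numbered above 18, share no sample with the comparison of 5 with 1. Between them edgeR called 0 of 15224 features (0%), with 564 at an unadjusted p under 0.05, and DESeq2 called 2. Of the 948 features on the higher side of 5xCHI against 1xCHI at an unadjusted p under 0.05, 58.3% were higher after 4xCHI than after 2xCHI, against 48.9% of all features, and of the 814 on the lower side 39.9% were. Of the 1288 features called in sample numbers 1 to 18, 75.8% had the same sign in 4xCHI against 2xCHI. This held for 75% of the 705 higher and 76.7% of the 583 lower, against 62.6% of all features. The glial lists had small differences between 4xCHI and 2xCHI, with medians of 0.03 for microglia, 0.12 for pan-reactive astrocytes and -0.01 for complement. Mitochondrial genes had a median of -0.22 and cholesterol genes 0.01. Among the leading genes Slc4a2 had the largest positive difference, 0.27 ± 0.15, and Gng4 had 0.27 ± 0.14, opposite to its sign in 5xCHI against 1xCHI. Gfap had 0.59 ± 0.16 (edgeR adjusted p = 0.987) and Serpina3n 0.27 ± 0.29. Choroid plexus, meningeal and striatal markers also differed between these 6 samples, with medians of 2.04, 0.44 and -0.60.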

How the data were processed

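Bulk RNA-seq was performed on 40 cortex samples, 1 mouse each according to the study. The authors deposited 1 table of estimated counts per gene, in GENCODE mouse annotation, with added rows for human transgenes; the submitters' notes name the mm10 build, and the quantifier's version is not given in the sources used here. Estimated counts were rounded (4.46% of values were not whole). The study left out 1 sample of 3xCHI at 4 h without naming it. Here it was taken to be 3xCHI 30, and leaving out 3xCHI 1 or 3 instead was tried. A feature was kept when no more than 4 of the 39 samples had a count under 10, which left 15224 of 55539. Groups were taken from the labels. Differences were tested with edgeR 4.0.16 (TMM, quasi-likelihood F test, Benjamini-Hochberg adjusted p under 0.05) in R 4.3.3, with time as a block. At single times, 1 mean per group and time was fitted to the same 20 samples. Alternatives used DESeq2 1.42.0, limma 3.58.1 and sva 3.50.0, other filters and scalings, and other sets of samples. CPM were TMM-scaled over the 39 samples and are compared only within a gene. Standard errors are those of the log2 fold change. The steps were tested on simulated counts. No 2 samples of a group agreed within sampling noise over 46 pairs.

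The genes named were the 6 of smallest p in each direction (no gene was called), the first 2 members of each gene list, the 3 of smallest p at each time and for variation with time, and the MAPT transgene with mouse App and Mapt. Some genes that this rule names are not reported here. Members and lists were chosen with earlier results of these data known.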

Additional observations from a re-analysis of the deposited data

Results flagged for a closer look

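In 9 of 120 groups of samples tested, 1 sample lay farther from the nearest other than Dixon's limit allows, where chance gives about 1 in 20. The 9 flags are not far above that rate. The groups share libraries and some genes, and are not independent of each other. The sample 5xCHI 11 accounted for 4 of the 9. It had the highest mean log2 CPM of proteasome genes among 5xCHI samples, at 6.14, and the lowest of cortical layer markers (5.49), glutamate and GABA receptors (5.99) and postsynaptic genes (6.99). The sample 1xCHI 15 was the highest of its group in mean log2 CPM of the A1 astrocyte list (3.70), of complement genes (3.68) and of meningeal markers (5.75). The sample 1xCHI 36 was the highest of its group for cholesterol synthesis genes (5.76), and 5xCHI 8 for immediate early genes (6.32). What sets these samples apart was not tested.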

How the results depend on the processing

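The count of 0 genes for 5xCHI against 1xCHI became 133 with DESeq2, 4403 with limma voom and sample quality weights, 176 with 1 surrogate variable and 167 with all 39 samples (167 and 160 with 3xCHI 1 or 3 left out in place of 3xCHI 30), 1288 in sample numbers 1 to 18 and 1 in 19 to 40. The other 12 of 20 alternatives and all 20 fits without 1 sample gave 0, with 1325 to 2470 features at an unadjusted p under 0.05 in the latter. The sample weights were lowest for 5xCHI 11 (0.16) and highest for 5xCHI 34 (2.65). In sample numbers 1 to 18 the count was 2346 with DESeq2, 4022 with limma voom and weights and 3413 without 5xCHI 10 and 11, and it ran from 131 without 5xCHI 7 to 3218 without 5xCHI 11, with 138 without 1xCHI 13 and 198 without 1xCHI 17. In 19 to 40 it was 4 with DESeq2 and 0 to 2 without 1 sample (2 without 5xCHI 34, and 0 without any of 1xCHI 26, 27 and 36 and 5xCHI 31 and 32). The difference between the ranges gave 728 with DESeq2, and 4xCHI against 2xCHI gave 2. The cause of these differences was not tested. The counts at single times and for variation with time were 0 under each alternative tried. Alternatives with libraries left out by their Gfap or Ttr, with 3xCHI 1 or 3 left out, without sample weights and within a range were chosen after seeing the data.

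Of 110 named genes, the sign differed from that reported for 42 in sample numbers 19 to 40, 31 without 5xCHI 10, 11, 12, 31 and 32, 29 with sample weights and 25 without 5xCHI 10 and 11. No paired analysis was possible because sample numbers are shared by no groups.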

Other observations

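Among the 72 genes called by all 4 of DESeq2, limma voom with sample weights, 1 surrogate variable and all 39 samples, further genes were read after their values were seen. On the higher side, Etnppl, a phosphoethanolamine lyase found mainly in astrocytes, had a log2 fold change of 1.10 for 5xCHI against 1xCHI, Tent5c, a poly(A) polymerase, 1.06, and Cybrd1, a ferric reductase, 0.92. Dock2, an activator of Rac in blood-derived and microglial cells, had 0.83, and Acacb, an acetyl-CoA carboxylase, and Retsat, a retinol saturase, had 0.50 and 0.55. On the lower side, the neuropeptide Grp had -0.85 and Pcsk1, a protease that processes neuropeptide precursors, -0.51. Cycs, which codes for cytochrome c, had -0.31, and Xpo1, the nuclear exporter, -0.32. None of these passed edgeR's test on the 20 samples.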
